A study of Mus musculus with 4 samples.

Results

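Injured and spared sensory neurons were compared inside the same dorsal root ganglia (DRGs) after chronic constriction injury (CCI), in which loose ligatures around the sciatic nerve damage some axons of a ganglion and leave others whole. Neurons were chosen by their own *Sprr1a* level, as injured above 1.7 unique molecular identifiers (UMIs) per 10000 UMIs of the cell (CP10K), which is about 1 as the natural log of CP10K plus 1, and as spared without a *Sprr1a* UMI. These limits gave 3840 injured and 1170 spared neurons, 5010 of the 7216 neurons in the 2 CCI libraries. The other 2206 neurons, with *Sprr1a* above 0 but not above the limit, belonged to neither group. Over all 4 libraries, 16997 of 23691 deposited cells passed as neurons, with at least 1500 genes, at most 10% mitochondrial UMIs, at least 5000 UMIs, and less than 100 CP10K of *Apoe*, a transcript abundant in satellite glia. All animals were *Pirt*-EGFPf heterozygotes on a C57BL/6 background, 7 to 8 weeks old, a knock-in line that reports the activity of *Pirt*, a gene of most DRG neurons, through a membrane-bound EGFP. GFP+ cells were sorted on day 7 after bilateral CCI or sham surgery, and each library (Male-CCI and Female-CCI, Male-Sham and Female-Sham) pooled 20 lumbar DRGs from 5 mice. Each CCI library thus gave 1 group of injured neurons (1739 in Male-CCI, 2101 in Female-CCI) and 1 group of spared neurons (487 and 683), and neurons of the sham libraries without a *Sprr1a* UMI (3489 and 5619) served as background.

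A sensory neuron whose peripheral axon is cut or crushed enters a regenerative state. Transcription factors such as ATF3 and SOX11 are induced, growth cone and cytoskeletal proteins increase, peptides such as galanin and neuropeptide Y appear, and many ion channels, receptors, and peptides of the neuron's normal sensory role decline. *Sprr1a* encodes a small proline-rich protein best known from the cornified envelope of the epidermis, is nearly absent from intact DRG neurons, and promotes axon outgrowth when it is induced by axotomy. Its protein and that of *Atf3* are in common use as histological labels of injured neurons. CCI leaves injured and spared neurons side by side, so both states can be read from 1 suspension of cells.

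The bases upstream of the start of *Sprr1a* and of 3 genes with large differences are shown because the AP-1 site (TGANTCA, bound by dimers of the ATF and JUN families) and the cAMP response element (CRE, TGACGTCA) are bound by transcription factors that nerve injury induces or activates. The sequences are the 250 bases before the RefSeq start (GRCm38.p6), 5′ to 3′ on the strand of the gene, and capitals mark the matches, searched on both strands. They lie at chr3:92485882-92486131 (*Sprr1a*, minus strand), chr1:74893144-74893393 (*Cryba2*, minus strand), chr6:49822460-49822709 (*Npy*, plus strand), and chr11:113619077-113619326 (*Sstr2*, plus strand).
Sprr1a: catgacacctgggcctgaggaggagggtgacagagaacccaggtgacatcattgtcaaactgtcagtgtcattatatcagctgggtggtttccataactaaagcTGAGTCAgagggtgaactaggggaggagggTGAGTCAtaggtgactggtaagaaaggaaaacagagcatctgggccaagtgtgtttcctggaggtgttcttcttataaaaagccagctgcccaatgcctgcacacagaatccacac
Cryba2: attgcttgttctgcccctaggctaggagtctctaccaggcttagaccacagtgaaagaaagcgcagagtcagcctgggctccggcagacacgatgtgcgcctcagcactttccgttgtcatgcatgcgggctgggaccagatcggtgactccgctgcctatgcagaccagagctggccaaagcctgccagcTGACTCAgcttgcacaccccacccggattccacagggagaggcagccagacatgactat
Npy: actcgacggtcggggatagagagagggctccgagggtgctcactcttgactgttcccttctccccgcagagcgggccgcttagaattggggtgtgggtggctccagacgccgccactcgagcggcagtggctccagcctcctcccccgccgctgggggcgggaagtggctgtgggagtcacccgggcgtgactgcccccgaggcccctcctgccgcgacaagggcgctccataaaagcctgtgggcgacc
Sstr2: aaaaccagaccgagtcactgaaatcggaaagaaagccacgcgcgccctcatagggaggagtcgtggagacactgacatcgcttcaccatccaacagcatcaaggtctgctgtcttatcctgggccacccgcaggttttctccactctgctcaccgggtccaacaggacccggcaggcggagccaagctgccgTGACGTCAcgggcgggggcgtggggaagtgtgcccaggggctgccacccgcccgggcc
The *Sprr1a* window held 2 AP-1 matches, at -146 and -116 from the start, the *Cryba2* window 1 at -59, and the *Sstr2* window 1 CRE match at -58. The *Npy* window, the gene with the largest difference among those with at least 20 CPM in injured neurons of both libraries, held neither. Of the 32851 windows of this length, 6.75% held an AP-1 and 1.55% a CRE match. Of the 24 genes with the largest differences described below, 18 had a RefSeq window. Counted by gene, 1 of 9 genes higher and 2 of 9 genes lower in injured neurons had a match in at least 1 window. Several lower genes had more than 1 window, and the other windows of *Rph3a* held no match. These are counts of genes, so they cannot be set beside the shares of windows. A match is a string of letters and was not tested for binding.

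The groups differed in depth. Injured neurons had a median of 60646 UMIs in Male-CCI and 46794 in Female-CCI, against 41163 and 33369 in spared neurons, and 7297 and 6657 detected genes against 6738 and 6241. A spared neuron has to show 0 *Sprr1a* UMIs, which a shallow cell does more readily, so the comparison described below was repeated with each neuron thinned to 5000 UMIs and grouped anew by whether the thinned cell held a *Sprr1a* UMI (1889 injured and 1321 spared neurons in Male-CCI, 2350 and 1656 in Female-CCI), which gave 2115 higher and 2541 lower genes of 12938 tested. Median mitochondrial content was 4.39% and 4.38% in injured against 4.99% and 5.06% in spared neurons. The doublet caller Scrublet did not work here, with 0 cells marked in both CCI libraries, so no doublets were removed. Of injured neurons 10.9% and 12.6%, and of spared neurons 5.34% and 3.37%, lay among the 10% of cells with the highest doublet score. Without the cells of that score 3359 genes were higher and 3735 lower, close to the counts given below. Over all deposited cells Male-CCI and Female-CCI shared 452 cell barcodes, 11.2% of the smaller library. Other pairs of libraries shared 4.44% to 10.2%. Barcodes shared by the neurons of the 2 CCI libraries were not counted, and their part in the results was not tested. By definition *Sprr1a* was absent from spared neurons, and its median in injured neurons was 32.7 CP10K in Male-CCI and 25.2 CP10K in Female-CCI. The injured neurons nearest the limit and the nearest neurons outside it lay at 1.7 CP10K in both libraries, and 15 and 20 injured neurons lay within 25% of the limit.

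Injured neurons made up 54.2% of the neurons in Male-CCI (1739 of 3210, 95% Clopper-Pearson interval 52.4 to 55.9) and 52.4% in Female-CCI (2101 of 4006, 50.9 to 54.0). In sham libraries the same limit was passed by 1.95% and 3.75% of neurons. In glia-rich cells of the CCI libraries, those with *Apoe* at 100 CP10K or more, 21 of 133 and 18 of 140 passed it, and 58 and 61 had any *Sprr1a* UMI, at a median of 11852 and 17865 UMIs. All these intervals cover counting error only, and cells of a library are not replicates.

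Neurons were placed in 11 classes through clusters of the sham neurons, made without the genes that differ between injured and spared neurons, and a CCI neuron took the class of the nearest cluster centre. A further cluster, led by *Comp*, had too few cells in CCI ganglia to compare (48 neurons in Male-CCI, 2 of them spared, and 94 in Female-CCI) and was left out of the classes. Classes carry the suffix -like because they rest on markers: NP1-like (*Sst*, *Nppb*), NP2-like (*Mrgprd*), and NP3-like (*Mrgpra3*) non-peptidergic neurons, cLTMR-like (*Th*, C-fiber low-threshold mechanoreceptors), PEP1/2-, PEP3/4-, and PEP5-like peptidergic neurons (*Tac1*, *Sstr2*, *Trpm8*), and NF1- and NF2-like neurofilament-rich neurons (*Pvalb*, *Fgf9*). Clusters led by *Fbp2* (with 5 cLTMR markers raised) and *Rxfp1* (with 4 PEP5 markers raised) had none of these markers among their 10 leading genes and are named by these genes. NP2-like neurons had the highest share of injured cells, 75.3% (72.0 to 78.3) in Male-CCI and 77.5% (74.6 to 80.2) in Female-CCI, followed by NP1-like neurons with 71.0% and 74.7%. The intervals of these neighbours overlapped in both libraries. PEP1/2-like neurons had the lowest share, 27.9% (23.9 to 32.3) and 30.3% (26.6 to 34.3), with Rxfp1-led neurons close by at 29.0% (18 of 62 cells) and 35.8% (19 of 53). Fbp2-led, NF1-, NF2-, NP3-, PEP3/4-, and PEP5-like neurons lay in between, from 43.0% to 54.3%. cLTMR-like neurons were the class in which the libraries stood apart, at 64.7% (58.1 to 70.8) and 50.2% (44.5 to 55.8). In the sham libraries NP1-like (9.32% and 17.2%), cLTMR-like (5.49% and 10.8%), and NP2-like neurons (4.29% and 9.93%) also had the highest shares. NP2-like neurons were 583 of 3649 and 836 of 6132 neurons in the sham libraries and 744 of 3210 and 892 of 4006 in the CCI libraries. PEP1/2-like neurons were 709 of 3649 and 1379 of 6132 in sham and 458 of 3210 and 577 of 4006 in CCI libraries. A lower share can mean fewer injured neurons of that class, a weaker *Sprr1a* response in them, or injured neurons placed in another class. These cannot be told apart here.

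**Figure D1:**
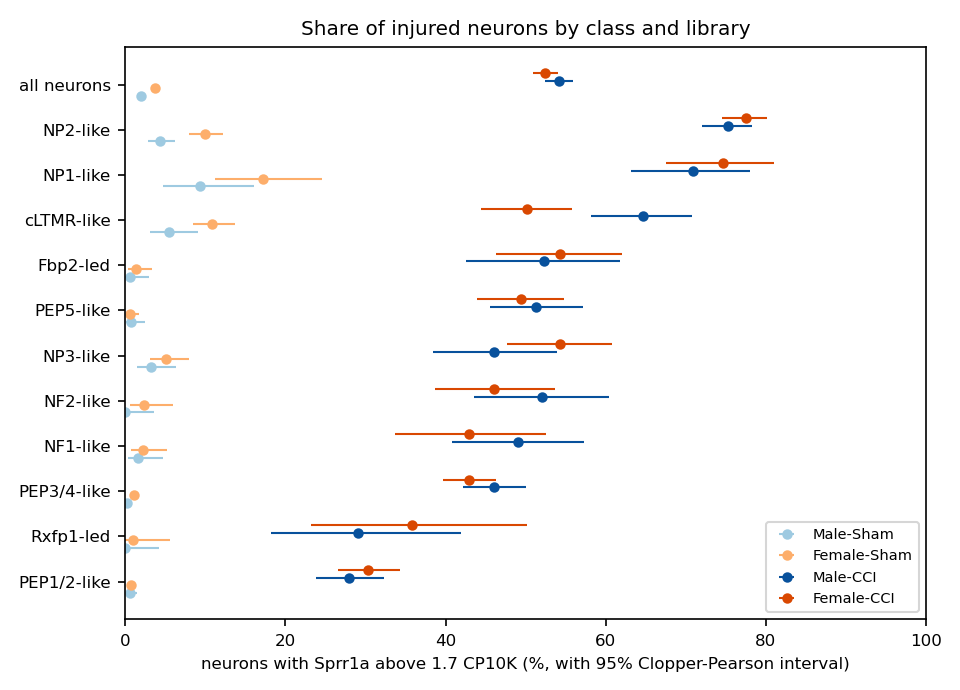
Share of neurons above the *Sprr1a* limit (percent, x axis) in all neurons and each class (y axis), in the 2 CCI and 2 sham libraries, with 95% Clopper-Pearson intervals as bars. NP2- and NP1-like neurons lay highest (71.0% to 77.5%) and PEP1/2-like neurons lowest (27.9% and 30.3%) in both CCI libraries, and no sham share exceeded 17.2%.

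Expression differed in many genes between the groups, somewhat more often downward than upward in injured neurons. For each group of each library the UMI counts of its neurons were added up, and the sums were compared by edgeR's quasi-likelihood test with the library as a block. A gene was called at a Benjamini-Hochberg adjusted p below 0.05 and an absolute log2 fold change above 0.5. Levels are UMIs per 1000000 UMIs of the sum (CPM), and log2 fold changes are injured over spared. Of 15869 genes tested, 3257 (20.5%) were higher and 3652 (23%) lower in injured neurons, 43.5% in all, leaving out *Sprr1a* itself. The difference exceeded 1 in log2 units for 1821 higher and 2296 lower genes, and 4 in log2 units for 301 and 118. It had the same sign in both libraries for 3251 of the 3257 higher and all 3652 lower genes. Both sums of a library come from the same pooled animals and only 2 pairs exist (1 residual degree of freedom), so the p-values measure how alike the 2 libraries were, with a spread borrowed from the other genes, and not the spread between animals. Scaling mattered for genes with small differences. With library totals in place of TMM factors the median of all genes moved from 0.01 to -0.20, a shift of 0.22, and the calls became 2319 higher and 4841 lower.

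Because injured neurons were richer in NP1- and NP2-like cells, the test was repeated on equal numbers of injured and spared neurons of each class (481 of each in Male-CCI, 658 of each in Female-CCI). Of 14568 genes tested, 2758 (18.9%) were higher and 3125 (21.5%) lower, 40.4% in all. Of the 3257 higher genes 2581 were called higher again, 386 were not called, 290 were not tested, and 0 were called lower. Of the 3652 lower genes 2975 were called lower again, 426 were not called, 251 were not tested, and 0 were called higher. The matched sums reuse 481 of the 487 and 658 of the 683 spared neurons and a part of the injured neurons. Much of this overlap is thus built in, and the second test is not independent of the first.

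The genes with the largest positive differences, among those called in both comparisons and with at least 20 CPM in injured neurons of both libraries, had a neuropeptide in the lead and lay at 2.85 CPM or less in spared neurons of both libraries. *Npy* (chromosome 6, 49822710 to 49829507), which encodes neuropeptide Y, lay at 2.37 and 1.98 CPM in spared neurons of Male-CCI and Female-CCI and at 267 and 161 CPM in injured neurons. The log2 fold change was 6.82 (SE 0.07, edgeR adjusted p = 4.56e-14). *Anxa1*, encoding the phospholipid-binding annexin A1, lay at 1.55 and 1.11 against 97.3 and 112 CPM. *Krt19*, a keratin of simple epithelia, lay at 0.241 and 0.742 against 28.5 and 33.7 CPM. *Tgfbi*, an extracellular matrix protein induced by TGF-beta, lay at 1.16 and 1.07 against 66.4 and 63.4 CPM. The log2 fold changes were 6.53, 6.15, and 6.08. All genes of this set were chosen for large differences, so the separation of the groups follows from the choice. Secreted growth factors followed. *Inhbb* (chromosome 1, 119415465 to 119422248), the beta B subunit of inhibin and activin, lay at 1.26 and 1.61 in spared and 73.5 and 82.3 CPM in injured neurons, and *Fgf3*, a fibroblast growth factor, at 0.918 and 2.60 against 90.8 and 96.9 CPM. Their log2 fold changes were 5.97 and 5.91 (edgeR adjusted p = 9.24e-14 and 5.52e-05). *Cryba2* (chromosome 1, 74889934 to 74893143), a crystallin of the lens, rose from 1.74 and 2.85 to 94.3 and 98.3 CPM, and *Star*, which carries cholesterol into mitochondria for steroid synthesis, from 0.869 and 0.660 to 23.1 and 22.2 CPM. *Cx3cr1*, the fractalkine receptor of microglia and macrophages, was called higher as well (0.821 and 1.20 against 49.9 and 38.0 CPM), but its annotated span shares the strand with *Csrnp1*, *Gorasp1*, and *Xirp1*, so its reads are uncertain. The remaining members of this set, *Pxdc1*, *1700003F12Rik*, and the lincRNA *5930412G12Rik*, differed by 5.37, 5.34, and 5.29 in log2 units, the last sharing its strand and part of its span with *Gm42498*. In sham neurons without *Sprr1a*, *Npy* lay at 0.0564 and 1.11 CPM, *Tgfbi* at 0.101 and 0.153 CPM, and *Inhbb* at 0.654 and 0.281 CPM, each below the spared neurons of both CCI libraries.

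The genes with the largest negative differences, chosen by the same limits with spared in place of injured neurons, included receptors, a peptide, and a channel of nociceptors. *Sstr2* (chromosome 11, 113619342 to 113626028), a somatostatin receptor, lay at 38.7 and 36.2 CPM in spared neurons of Male-CCI and Female-CCI and at 0.913 and 0.977 CPM in injured neurons, with spared values close to the sham values of 33.0 and 34.7 CPM. The difference was -5.09 (SE 0.09, edgeR adjusted p = 8.19e-13). *Tac1* (chromosome 6, 7554879 to 7565834), the precursor of substance P, fell from 2939.5 and 3883 to 72.7 and 115 CPM. *Mrgprd* (chromosome 7, 145314835 to 145324086), a receptor that marks non-peptidergic nociceptors, fell from 45.1 and 33.2 to 1.49 and 1.09 CPM although its class was the one richest in injured cells. *Trpa1*, a channel opened by electrophilic irritants, fell from 42.1 and 63.5 to 1.58 and 2.92 CPM, and its spared levels lay above the sham levels of 26.4 and 30.7 CPM. The log2 fold changes were -4.99, -4.70, and -4.35, and in the class-matched test -4.38, -5.45, and -4.02. Signaling proteins inside the cell made up much of the rest. *Car8*, a carbonic anhydrase-related protein that binds the inositol trisphosphate receptor, lay at 117 and 146 against 5.25 and 6.02 CPM, *Rgs8*, a regulator of G protein signaling, at 26.3 and 26.1 against 0.752 and 1.33 CPM, and *Plcd4*, a phospholipase C, at 49.8 and 38.8 against 1.91 and 2.22 CPM. *Rph3a*, the Rab3 effector rabphilin of synaptic vesicles, lay at 114 and 101 against 4.96 and 6.01 CPM. Here too the separation of the groups follows from the choice of genes with large differences. *Zdhhc22* (a palmitoyltransferase), *Wfdc2*, *Samsn1*, and *Gm7271* differed by -4.47, -4.35, -4.34, and -4.18, the last with an edgeR adjusted p of 0.0317.

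**Figure D2:**
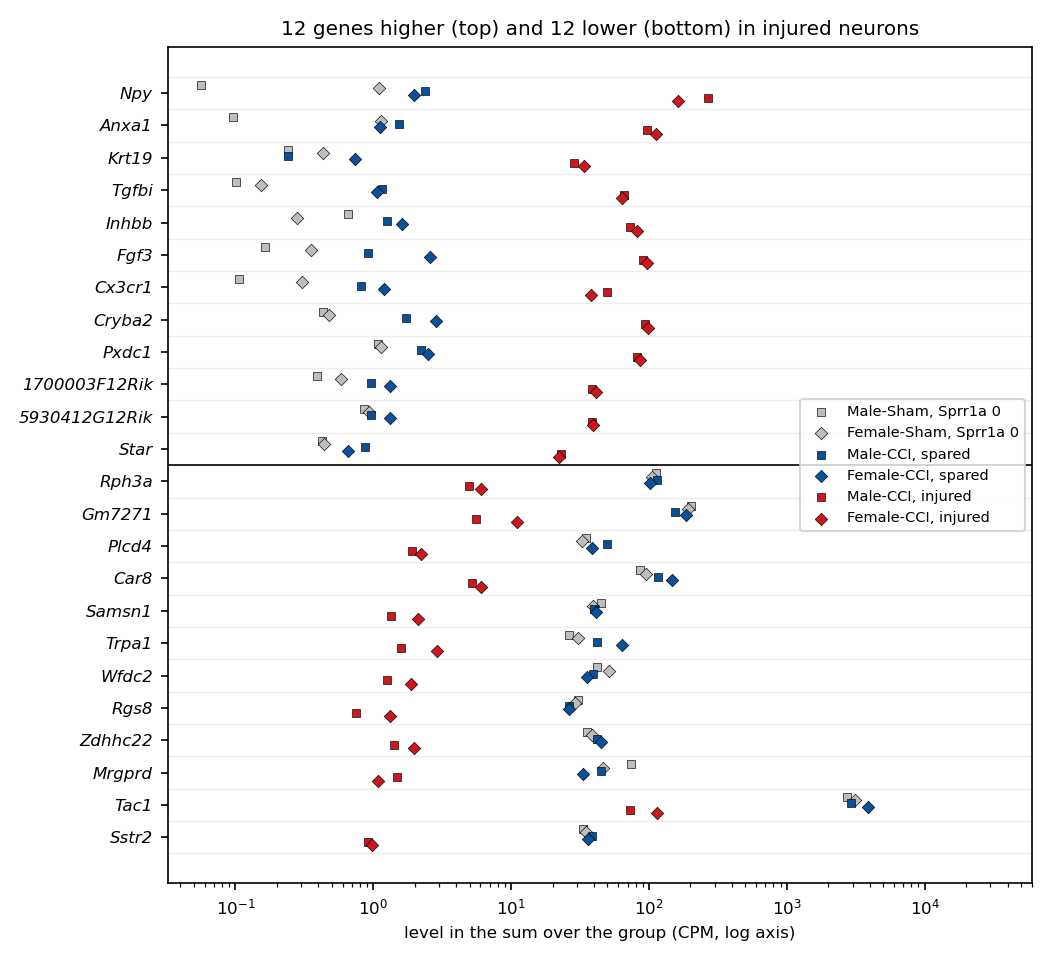
Levels (CPM of the summed counts, log x axis) of the 12 genes with the largest positive and the 12 with the largest negative log2 fold change (y axis), 1 point per group and library. Red points (injured) and blue points (spared) were separate for every gene, which follows from the choice of genes by size of difference. Gray points (sham neurons without *Sprr1a*) lay with the spared neurons for the lower genes. For most of the higher genes the gray points lay at or below the spared neurons.

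Counts of called genes in the lists below stand beside 20.5% higher and 23% lower over all genes tested. Transcription factors split by role. Of 18 factors associated with regeneration, 9 were higher and 1 lower in injured neurons, with a median log2 fold change of 0.56 beside 0.01 over all genes tested. *Sox11*, required for axon growth, lay at 90.9 and 98.0 CPM in spared and 889 and 875 CPM in injured neurons, a difference of 3.44 (SE 0.04, edgeR adjusted p = 4.96e-14). *Atf3*, the stress-induced factor used to mark injured neurons, lay at 164 and 193 against 1146 and 1184 CPM (2.92, SE 0.05), so that spared neurons were not free of it, and stood above sham neurons at 114 and 130.0 CPM. *Nfil3*, a repressor of CREB targets, differed by 2.22, *Rest*, a silencer of neuronal genes, by 1.47, *Cebpb* by 1.22, *Klf6* by 1.19, *Smad1* by 1.11, *Myc* by 0.95, and *Jun* by 0.62. *Sox4* was the member that fell, from 128 and 132 to 57.8 and 62.1 CPM. *Stat3* (0.04) and *Creb1* (0.34), whose proteins are regulated by phosphorylation, did not pass.

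Of 18 transcription factors that set or maintain the identity of sensory neurons, 15 were lower and 0 higher by edgeR, with a median of -1.55 (0 higher also at an unadjusted p below 0.05 and by DESeq2). *Isl1* and *Pou4f1*, which are shared by all DRG neurons, differed by -1.10 and -0.68, and factors of particular classes by more. *Etv1* lay at 78.0 and 57.6 CPM in spared and 4.58 and 4.85 CPM in injured neurons (-3.62, edgeR adjusted p = 1.08e-05), *Hoxd1* at 11.5 and 10.1 against 0.419 and 0.417 CPM (-4.47), and *Bhlha9* at 27.4 and 29.8 against 2.05 and 3.11 CPM (-3.27). *Pou4f2* (-2.89), *Prdm12* (-2.41), *Runx3* (-2.15), *Foxp2* (-2.10), *Tlx3* (-0.93), and *Runx1* (-0.84) were called lower too. *Shox2* (0.32), *Ebf1* (-0.31), and *Neurod1* (-0.04) were not called.

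Growth cone and cytoskeleton genes had the largest share of higher members of the lists in the comparison of all neurons, 19 of 25, against 0 lower by edgeR and by DESeq2 (2 at an unadjusted p below 0.05), with a median of 1.23. *Tubb6*, a minor beta-tubulin, lay at 4.88 and 5.07 CPM in spared and 123 and 110.4 CPM in injured neurons, a difference of 4.76 (SE 0.06, edgeR adjusted p = 8.13e-14). *Flnc*, a filamin that crosslinks actin, lay at 2.70 and 2.23 against 63.3 and 59.7 CPM (4.86), *Plaur*, the urokinase receptor, at 6.81 and 5.15 against 79.5 and 78.6 CPM (3.95), and *Itga7*, the alpha subunit of a laminin receptor, at 20.8 and 22.6 against 188 and 178 CPM (3.29). The adhesion molecule *Chl1* differed by 3.16, *Stmn4* by 2.56, and *Gap43*, the classic growth-associated protein, by 2.10. Among tubulins *Tuba1c* (2.47), *Tubb2b* (1.79), *Tubb3* (1.32), *Tubb2a* (1.15), and *Tuba1a* (0.99) were higher. These paralogs share sequence, so their reads may be split unevenly. *Stmn1*, *Stmn3*, *Dpysl2*, *Dpysl3*, *L1cam*, and *Cdk5r1* were not called, with differences between -0.22 and 0.49.

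Neuropeptides moved in both directions. Of 17 peptide genes 16 were tested (*Vip* did not pass the filter on low counts), 5 were higher and 10 lower, and the median was -1.60. Besides *Npy*, the higher ones were galanin, neurotensin, corticotropin-releasing hormone, and *Grp* (3.14). *Gal* lay at 490.0 and 605 CPM in spared neurons, already above the sham levels of 325 and 365 CPM, and at 5943 and 6430.3 CPM in injured neurons (3.72, SE 0.06, edgeR adjusted p = 3.56e-07). *Nts* lay at 111 and 79.3 against 1812 and 1934 CPM (4.53), with an edgeR adjusted p of 0.0328 that ranged on both sides of the threshold over the alternatives. Lower peptides included those of peptidergic nociceptors. *Calca*, the CGRP precursor, lay at 7782 and 8971 CPM in spared and 639.7 and 691 CPM in injured neurons (-3.44, edgeR adjusted p = 1.00e-14), and *Cartpt* at 269.7 and 319 against 36.9 and 34.2 CPM (-2.83). *Sst*, the somatostatin gene of itch neurons, lay at 31.5 and 18.1 against 0.466 and 0.509 CPM (-5.43), and was not called in the class-matched test (edgeR adjusted p = 0.0573). *Calcb* (-2.46), *Adcyap1* (-2.24), *Nmb* (-2.43), *Nmu* (-2.49), *Nppb* (-0.96), and *Penk* (-0.90) also fell, whereas *Cck* (0.26) was not called.

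Of 20 genes for other secreted signals 19 were tested (not *Lif*), 12 were higher and 3 lower, and the median of 3.49 was the highest of all lists. *Csf1*, the cytokine through which injured neurons reach microglia, differed by 3.65 (13.4 and 14.6 CPM in spared, 149 and 154 CPM in injured neurons). *Clcf1* (4.21), a cytokine acting on the CNTF receptor, was higher as well, as were *Igfbp3* (3.80), *Gdf15* (3.49), and *Tgfb1* (2.57). *Il24* had no UMI in spared neurons of either library against 1.58 and 0.672 CPM in injured neurons, at least 10.9-fold higher in Male-CCI and at least 5.43-fold in Female-CCI against a floor of 3 UMIs. *Reg1*, of the regenerating islet-derived family, had 1 UMI in spared neurons of Male-CCI, a ratio of 29.0 (95% counting interval 5.12 to 1152), and 0 in Female-CCI, at least 5.26-fold higher. The members that fell were the chemokines *Ccl2* (17.5 and 24.2 to 2.94 and 3.32 CPM, -2.51) and *Cx3cl1* (1.79 and 2.68 to 0.152 and 0.142 CPM, -3.68), and *Bdnf*, from 192 and 255 to 58.5 and 65.5 CPM (-1.63).

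In each family of ion channels followed, more genes were lower than higher in injured neurons. Of 13 voltage-gated sodium channel genes 10 were lower and 0 higher by edgeR and by DESeq2 (1 higher at an unadjusted p below 0.05; median -1.40). *Scn10a*, encoding Nav1.8 of nociceptors, lay at 180.4 and 199.9 CPM in spared neurons, just below sham neurons (227 and 221 CPM), and at 16.2 and 19.6 CPM in injured neurons (-3.20, SE 0.04, edgeR adjusted p = 8.13e-14). *Scn11a*, encoding Nav1.9, fell from 135 and 152 to 9.45 and 13.4 CPM (-3.45), *Scn1a* by 2.53 on the log2 scale, and *Scn9a*, encoding Nav1.7, by 0.83. *Scn3a*, the embryonic channel, differed by -0.50 and was not called. Of 48 potassium channel genes 47 were tested (not *Kcna3*), 37 were lower and 4 higher (median -1.71). *Kcnip2*, an accessory subunit of the A-type channels, fell from 33.3 and 36.1 to 2.96 and 3.76 CPM (-3.15, edgeR adjusted p = 1.08e-11), and *Kcnk18*, the background channel TRESK, from 16.3 and 9.15 to 1.20 and 0.946 CPM (-3.33). *Kcnd2* (-3.12), *Kcna2* (-2.94), *Kcns1* (-2.97), and *Kcnq5* (-2.97) were also lower. The higher genes included the M-current subunit *Kcnq3* (6.95 and 6.14 to 17.0 and 13.5 CPM, 1.43), the delayed rectifier *Kcna1* (1.26), and *Kcnk12* (1.52).

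Of 17 voltage-gated calcium channel genes 16 were tested (not *Cacna1g*), 10 were lower and 2 higher (median -0.75). *Cacna2d1*, the gabapentin-binding alpha2delta subunit, lay at 461 and 471 CPM in spared and 946 and 838 CPM in injured neurons (1.15, SE 0.05, edgeR adjusted p = 6.11e-06), and *Cacna2d3* at 19.5 and 16.5 against 25.3 and 22.1 CPM (0.61), a difference that was not past the threshold with library totals as the scale or in the class-matched test. Their relative *Cacna2d2* fell from 87.2 and 77.2 to 13.5 and 13.1 CPM (-2.41), and *Cacna1e*, the R-type channel, from 22.1 and 20.9 to 1.05 and 1.18 CPM (-4.06). The L-type *Cacna1c* (-0.80) and T-type *Cacna1h* (-1.49) were lower, while *Cacna1a* (-0.27) and *Cacna1b* (-0.16), the P/Q- and N-type channels of synaptic terminals, were not called. Of 24 sensory transduction channels 13 were lower and 5 higher (median -0.78), the latter near the share of 20.5% over all genes tested. The cold channel *Trpm8* fell from 13.4 and 11.1 to 0.324 and 0.356 CPM (-4.94), and the capsaicin receptor *Trpv1* from 191 and 176 to 34.1 and 38.2 CPM (-2.13). *Piezo2*, the main touch channel, differed by -1.03. The higher ones were the ATP-gated *P2rx3* (6.33 and 7.05 to 28.9 and 34.3 CPM, 2.46), *P2rx5* (1.28), and *P2rx4* (0.55), the chloride channel *Ano1* (2.65), and *Piezo1* (1.25), which lay under 1 CPM in all 4 sums and was not called in the class-matched test.

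Receptors followed the same pattern where they couple to G proteins. Of 40 such genes 38 were tested (not *Galr2* and *Lpar5*), 27 were lower and 7 higher, with the lowest median of all lists, -2.04. The share of higher members was near the 20.5% over all genes tested. Opioid receptors were all lower, *Oprk1* by -5.11, *Oprl1* by -3.51, *Oprm1* by -3.20, and *Oprd1* by -2.44 in log2 units, with *Oprm1* at 13.7 and 16.7 CPM in spared and 1.27 and 1.60 CPM in injured neurons. The galanin receptor *Galr1* fell from 12.9 and 16.1 to 0.219 and 0.702 CPM (-4.80, edgeR adjusted p = 8.49e-06) while galanin itself rose. *Cckbr*, a cholecystokinin receptor, moved most in the other direction, from 1.26 and 1.77 to 45.2 and 43.9 CPM (5.07, SE 0.10, edgeR adjusted p = 1.52e-12), and *Hrh1* (1.67), *Adra2a* (1.49), and *Npy2r* (1.09) were higher. *Npy1r* was lower (-1.93). *Mc4r* was called higher (1.21) on 3 UMIs in spared neurons of Male-CCI, where the ratio of 2.76 had a 95% counting interval of 0.881 to 13.9.

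Growth factor and cytokine receptors divided evenly, with 9 of 26 higher and 10 lower and a median of 0.09 that turned to -0.12 with library totals as the scale. *Tnfrsf12a*, the TWEAK receptor, lay at 11.6 and 10.8 CPM in spared and 133 and 126 CPM in injured neurons (3.74, SE 0.05, edgeR adjusted p = 8.13e-14), and *Il1r1* at 4.73 and 3.96 against 19.3 and 20.6 CPM (2.42). *Egfr* had 2 UMIs in spared neurons of Male-CCI and 1 in Female-CCI against 466 and 384 in injured neurons, ratios of 45.9 (95% counting interval 12.6 to 380) and 94.8 (16.9 to 3752). Of the GDNF family receptors *Gfra1* (1.57) and the signaling receptor *Ret* (0.61) were higher and *Gfra2*, for neurturin, fell from 79.4 and 90.1 to 5.55 and 7.39 CPM (-3.50). The neurotrophin receptors *Ntrk2* (-1.38), *Ntrk3* (-0.79), and *Ngfr* (-1.01) were lower.

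Of 22 genes for stress, DNA damage, and cell death 15 were higher and 1 lower (median 1.39). *Ecel1*, an endopeptidase induced by nerve injury, lay at 5.89 and 9.90 CPM in spared and 209 and 195 CPM in injured neurons (4.87, SE 0.24, edgeR adjusted p = 0.00700). *Gadd45a*, a growth arrest gene, lay at 44.8 and 49.5 against 489.6 and 495 CPM (3.60). Genes of the integrated stress response were higher together, *Chac1* by 3.58, *Trib3* by 2.36, *Ddit3* by 2.09, *Atf4* by 1.73, *Atf5* by 1.47, and *Asns* by 1.34 in log2 units. Pro-apoptotic *Hrk* (3.12), *Bbc3* (0.76), and *Bcl2l11* (0.66) were higher and anti-apoptotic *Bcl2l1* lower (-0.78), while the chaperone *Hspb1*, which protects injured neurons, was higher as well (1.60). *Sarm1* (0.44) and *Nmnat2* (-0.27), which decide axon degeneration, were not called.

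Of 26 genes of synaptic vesicle release 15 were lower and 2 higher (median -0.86). *Sv2a* fell from 83.8 and 87.7 to 16.4 and 17.6 CPM (-2.12, edgeR adjusted p = 1.99e-12) and *Rims2*, of the active zone, from 106 and 117 to 33.5 and 34.0 CPM (-1.50), whereas *Sv2c* (0.81) and *Stx1a* (0.80) were higher. *Syt1* (-0.29), *Vamp2* (-0.10), and *Syn1* (0.12) were not called. The 15 immediate early genes, which also respond to dissociation of the tissue, divided into 6 higher and 6 lower, with a median of 0.14 that became -0.08 with library totals as the scale. *Fos* (167 and 142 to 73.2 and 69.4 CPM, -0.90), *Fosb* (-1.10), *Btg2* (-1.06), *Junb* (-0.63), *Nr4a1* (-0.54), and *Npas4* (-4.23) were lower, and *Fosl2* (10.1 and 13.1 to 34.8 and 36.8 CPM, 1.84), *Egr3* (2.47), *Nr4a2* (1.34), *Arc* (1.29), *Egr1* (0.60), and *Ier2* (0.55) higher.

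**Figure D3:**
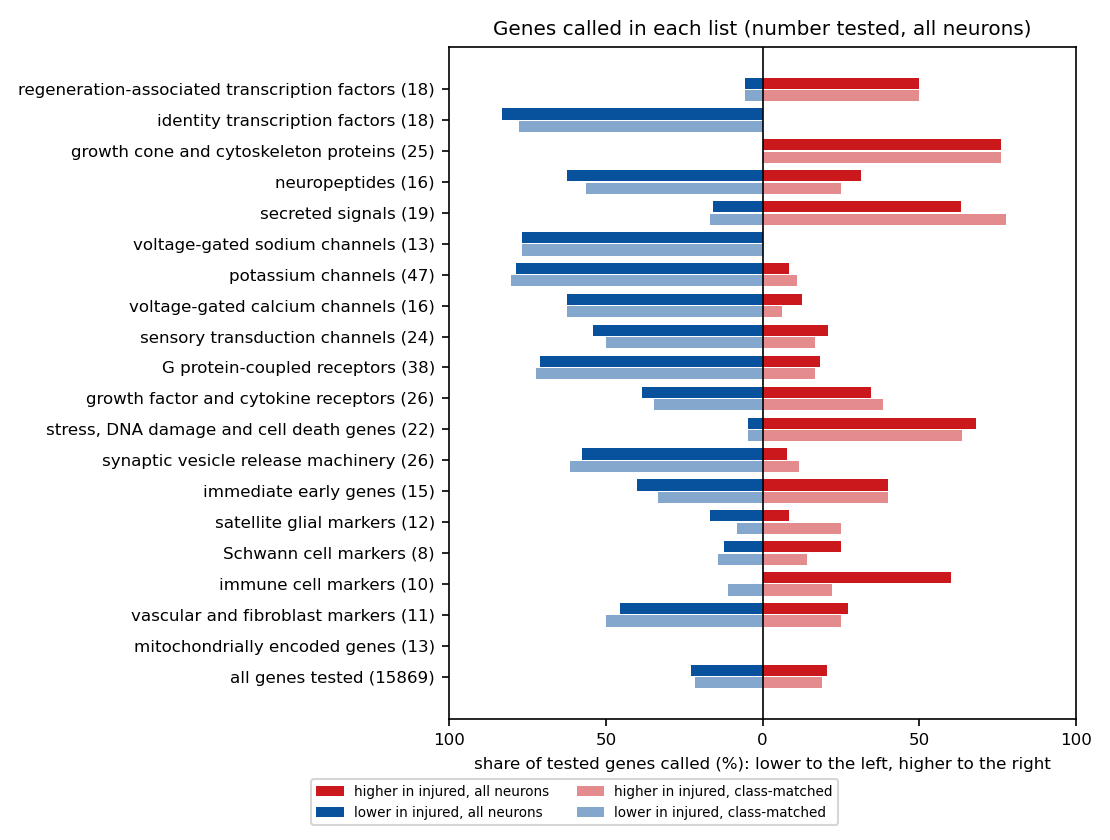
Share of the tested genes of each list called higher (to the right) or lower (to the left) in injured neurons (percent, x axis), in all neurons (dark bars) and in class-matched neurons (light bars), with the share over all genes tested in the bottom row (20.5% higher and 23% lower in all neurons). Growth cone, secreted, and stress genes extended to the right, and identity factors, channels, and G protein-coupled receptors to the left.

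Markers of other cells were read beside these results. The 12 satellite glial markers summed to 1828 and 1700.5 CPM in spared and 1725 and 1764 CPM in injured neurons, and none was at 0. The one called higher was *Glul* (1.75), glutamine synthetase, at 73.7 and 67.5 against 218 and 192 CPM, while *Mbp* (-1.52) and *Ptgds* (-0.55) were lower. In the class-matched test 3 were higher and 1 lower, and with all neurons up to the *Sprr1a* limit taken as spared 7 were higher and 2 lower. A list of 7 satellite glia markers led by *Apoe* summed to 1412 and 1274 CPM in spared and 901 and 1099 CPM in injured neurons. *Apoe* itself lay at 959 and 880 against 559 and 729 CPM. By class it was higher in injured cells of both libraries in 2 of 11 classes and lower in 3. In NP3-like neurons all 12 markers of the first list had a log2 fold change above 0, with a median of 2.33. There *Apoe* lay at 21.96 and 275 CPM in spared and 573 and 551 CPM in injured cells, with sham cells at 482 and 623 CPM. Of 9 Schwann cell markers 8 were tested (not *Mag*), and 2 were higher and 1 lower, not far from the 20.5% and 23% over all genes tested. Their sum of 451 and 489 CPM in spared and 584 and 591 CPM in injured neurons was mostly *Pmp22*. Of 12 immune markers 10 were tested (not *Ptprc* and *Cd3e*) and 6 were higher. The sum was 23.9 and 10.8 CPM in spared and 67.8 and 58.9 CPM in injured neurons, of which *Cx3cr1* held 49.9 and 38.0 CPM. *Csf1r*, a macrophage receptor, lay at 0.241 and 0.124 against 3.24 and 2.30 CPM, *Tyrobp* at 0.290 and 0.206 against 0.942 and 0.763 CPM, and 2 of 9 markers were higher and 1 lower in the class-matched test. *Cd3e* was at 0 in all 4 groups and *Ptprc* in spared neurons of Female-CCI. The 11 vascular and fibroblast markers summed to 54.7 and 56.7 CPM in spared and 16.5 and 20.7 CPM in injured neurons, with 3 higher and 5 lower. In spared neurons most of the sum was *Rgs5* (34.3 and 42.3 CPM), with a log2 fold change of -3.35. *Rgs5* was also among the 10 leading genes of the sham neuron cluster led by *Th*, so here it does not mark vascular cells alone. *Cldn5* of endothelium had 0 UMIs in injured neurons of Male-CCI. The 13 mitochondrially encoded genes summed to 51082 and 50783 CPM in spared and 44385 and 44884 CPM in injured neurons, and 0 were called by edgeR or DESeq2 (3 higher and 6 lower at an unadjusted p below 0.05), with differences between -0.22 and 0.17. The part of these markers in the results was not tested. The 6 pan-neuronal markers were present in every group and summed to 8301 and 7912 CPM in spared and 11051 and 10492 CPM in injured neurons. Within that list *Tubb3* was higher, and *Isl1*, *Pou4f1*, and *Snap25* were lower, in injured neurons of all 11 classes in both libraries.

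Class by class, markers that set one kind of neuron apart from another were compared, and those given next were reduced in injured neurons. *Mrgprd* in NP2-like neurons lay at 338 and 261 CPM in spared and 3.86 and 2.85 CPM in injured cells, with sham neurons at 341 and 259 CPM. *Th*, encoding tyrosine hydroxylase, lay at 447 and 419 against 11.7 and 17.7 CPM in cLTMR-like neurons. *Mrgpra3*, an itch receptor, lay at 72.0 and 77.3 against 3.82 and 5.56 CPM in NP3-like neurons. Spared cells thus lay near or at the level of sham cells for *Mrgprd*, and injured cells far below. In NP1-like neurons *Sst* lay at 824 and 649 against 5.66 and 6.31 CPM, while *Nppb*, the natriuretic peptide of the same cells, kept 149 and 122 of 736 and 655 CPM. *Tac1* in PEP1/2-like neurons lay at 5348 and 6796 against 221 and 436 CPM, and *Sstr2* in PEP3/4-like neurons at 134 and 108 against 4.17 and 4.11 CPM. In PEP5-like neurons *Trpm8* lay at 125 and 109 against 2.61 and 3.52 CPM, but *Foxp2* kept 50.0 and 43.0 of 204 and 175 CPM. *Pvalb*, the calcium-binding protein of proprioceptors, lay at 1748 and 1142 against 70.1 and 152 CPM in NF1-like neurons. The smallest difference among these markers was that of *Fgf9* in NF2-like neurons, 48.5 and 39.0 against 25.3 and 27.0 CPM. Not every marker fell. *Ddr2*, also of the NF2 list, was nearly level in NF2-like neurons of Male-CCI (58.6 CPM in spared, 57.0 CPM in injured cells). In Female-CCI it was higher in injured cells (39.0 CPM in spared, 72.7 CPM in injured cells).

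Over all 62 class markers, the SD of a marker's level across the 9 named classes (log2 of CPM plus 1) had a median of 2.43 in spared and 1.21 in injured neurons of Male-CCI, and of 2.38 and 1.23 in Female-CCI, beside 2.21 and 2.05 in sham neurons. Injured classes were thus less distinct in their markers than spared classes, by these medians, in both libraries. The markers were also compared inside and outside their own class. In injured neurons all 7 markers of NP2-like and all 9 of PEP1/2-like neurons were higher in their own class than outside it in both libraries, and so were all markers of the other named classes except in NF2-like and PEP3/4-like neurons with 6 of 7. In spared neurons NF2-like cells had 6 of 7 too, and PEP3/4-like cells 7 of 7. The classes were named by these same markers in sham neurons, and cells were placed by likeness to the sham clusters. Such an excess is thus favored by the placement and is no independent sign that injured neurons kept their identity. The assignment was less sure in injured neurons, of which 80.8% and 80.3% took the same class when all genes were used, against 89.7% and 84.3% of spared neurons, and its part in the reduced spread was not tested. Within NF1-, PEP3/4-, and PEP5-like neurons, moreover, the cluster with the largest part of the injured cells (led by *Ntng1*, *Adamts1*, and *Foxp2*, with 62.6%, 50.2%, and 60.2%) was not the one with the largest part of the spared cells (led by *Pvalb*, *Pde1a*, and *Trpm8*, with 55.9%, 35.5%, and 50.3%). The *Adamts1*-led cluster was small and shallow, with 193 sham neurons at a median of 11508 UMIs, the lowest of all clusters. The other PEP3/4-like clusters had 575 to 781 sham neurons at medians of 28706 to 31134.5 UMIs. The placement of injured PEP3/4-like neurons is thus uncertain, and its part in their values was not tested.

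**Figure D4:**
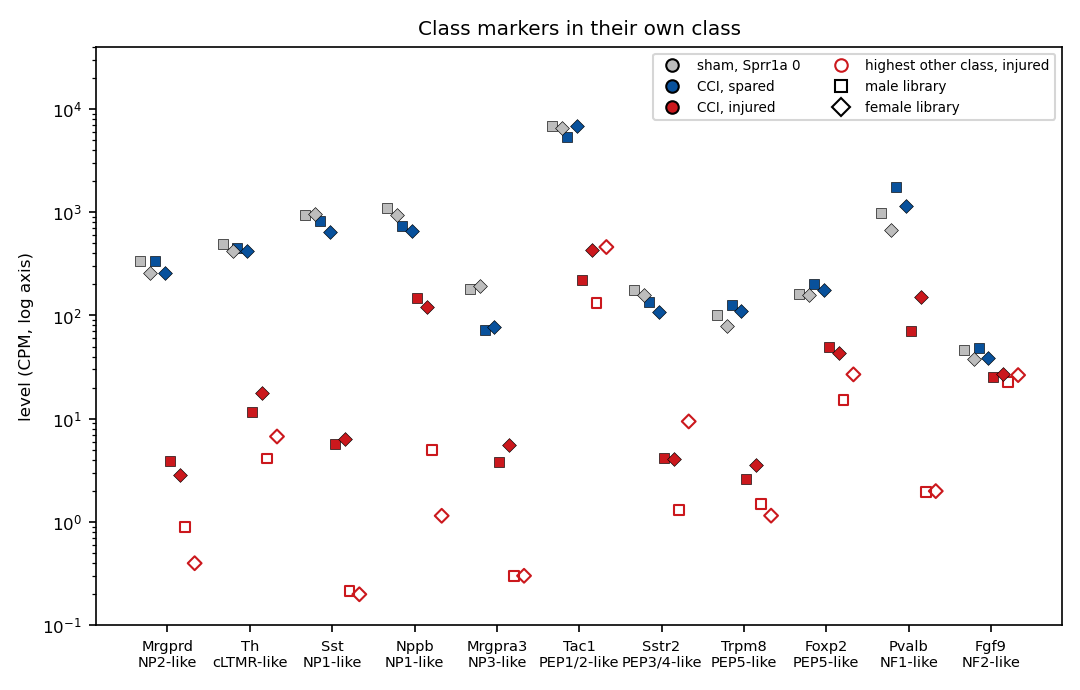
Levels (CPM, log y axis) of selected markers of each named class (x axis) in the neurons of that class, in injured, spared, and sham neurons of each library. NP1-like neurons are shown by *Sst* and *Nppb* and PEP5-like neurons by *Trpm8* and *Foxp2*. Open symbols give the highest injured level of the marker in any other class. For the markers plotted, injured neurons lay below spared and sham neurons in each class, by the least for *Fgf9* in NF2-like neurons. Other markers of the lists are not shown, among them *Ddr2* of NF2-like neurons, which was not lower in injured cells of Female-CCI.

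The genes with the largest overall differences were shared by the classes more often in the upward than in the downward direction. All 12 of the most increased genes had a log2 fold change above 1 in each of the 11 classes, whereas of the 12 most decreased genes between 6 (NF1-like) and 12 were lower in a class. *Samsn1*, *Rph3a*, and *Tac1* were lower in both libraries in all 11 classes, *Plcd4* and *Zdhhc22* in 10, *Trpa1*, *Rgs8*, and *Gm7271* in 9, *Car8* in 8, *Sstr2* in 5, *Wfdc2* in 4, and *Mrgprd* in 3 of them. In both libraries *Mrgprd* was higher in 4 classes, *Sstr2* and *Rgs8* in 2, and *Plcd4*, *Trpa1*, *Car8*, and *Wfdc2* in 1. Genes of few classes lie low elsewhere, as *Mrgprd* does in spared cells outside NP2-like neurons (1.44 and 0.988 CPM). Their direction there is uncertain, and its part in the contrast between upward and downward genes was not tested.

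Induced peptides were distributed by class. *Gal* was higher in injured neurons of all 11 classes, but its injured level ran from 1138 and 1910.5 CPM in NP1-like and 1695 and 1514 CPM in NP3-like to 15426 and 17092 CPM in PEP5-like neurons, where spared cells already had 594 and 621 CPM. In NF1-like neurons it rose from 21.9 and 36.9 to 8781 and 8604 CPM. *Npy* was highest in neurofilament-rich neurons, with 1979 and 939.7 CPM in injured NF1-like and 1376 and 1135 CPM in injured NF2-like cells against 6.46 and 7.92 CPM in PEP5-like cells, and its difference varied between classes (edgeR interaction test, adjusted p = 1.90e-06). *Crh* reached 748 and 607 CPM in injured cLTMR-like and 501 and 387 CPM in Fbp2-led neurons, where spared cells had 0.779 and 22.7, and 0 and 1.03 CPM. *Nts* was already high in spared NP1-like neurons (2485 and 772 CPM) and lay at 2968 and 3445 CPM in injured cells, while cLTMR-like neurons had 7.01 and 45.4 against 3263 and 2504 CPM. *Calca* went in both directions. NP3-like neurons had 10250 and 11061 CPM in spared and 875 and 908 CPM in injured cells, and NF1-like neurons, which have little of it, had 34.3 and 80.7 against 433 and 615 CPM. *Anxa1* was absent or nearly so from NF2-like neurons of both kinds (at most 3.77 CPM) and reached 187 and 204 CPM in injured NP2-like neurons.

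Whether the injured-spared difference of a gene varied between classes was tested by the interaction of group and class over the 11 classes (10 numerator and 11 residual degrees of freedom). Of 13812 genes tested, 6147 (44.5%) passed an adjusted p of 0.05 in edgeR's quasi-likelihood F test. All classes were cut from the same 2 pooled libraries, so these p-values too do not measure the spread between animals. Some spared sums rest on few cells, 13 in Male-CCI and 17 in Female-CCI for NF2-like and 15 in each for NP1-like neurons. The 6 genes with the smallest p differed between classes in size or in direction. *Ptprn*, a protein of dense-core vesicles (adjusted p = 4.36e-28), lay low in spared NP2-like (17.1 and 14.3 CPM), Fbp2-led (8.33 and 8.27 CPM), and cLTMR-like neurons (7.01 and 13.4 CPM), and at 215 and 203, 199 and 163, and 241 and 215 CPM in the injured neurons of these classes. In spared neurons of the other classes it lay between 131 (Rxfp1-led, Male-CCI) and 296 CPM (PEP1/2-like, Male-CCI), so the 3 classes with almost no *Ptprn* when spared reached the range of the others when injured. *Lix1* (edgeR interaction, adjusted p = 3.14e-29) lay lower in injured than in spared NP2-like neurons (277 and 272 against 837 and 916 CPM) and higher in injured PEP5-like neurons (172 and 179.7 against 49.2 and 48.1 CPM), so that over all neurons it was not called (0.15). *Txn1*, thioredoxin (adjusted p = 2.49e-25 in the same edgeR test), lay at 4348 and 6083 against 2494 and 2639 CPM in NP2-like, but at 923 and 911 against 2384 and 2557 CPM in NF1-like neurons. *Pop5*, an RNase P subunit (edgeR adjusted p = 5.63e-26), was likewise lower in injured NP2-like and higher in injured PEP5-like neurons. *Adk*, adenosine kinase, and *Phf24* (edgeR adjusted p = 4.45e-25 and 9.80e-25) were lower in injured neurons of all 11 classes but by different amounts, *Adk* from 1304 and 1744 to 171 and 187 CPM in NP1-like and from 53.6 and 42.3 to 36.8 and 34.3 CPM in NF2-like neurons.

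Neurons of the CCI libraries were also divided by their *Sprr1a* level into 5 bins, 0, above 0 to 1.7, to 5, to 20, and above 20 CP10K (487, 984, 65, 378, and 1296 neurons in Male-CCI and 683, 1222, 139, 680, and 1282 in Female-CCI). For all 8 genes plotted the change from the second to the third bin, across the limit, was larger than that from the first to the second. These genes were chosen among those that differ between injured and spared neurons, and the bins use the value that defined these groups. A step across the limit thus follows in part from the choice. *Atf3* lay at 164, 209, 1009, 1067, and 1178 CPM in Male-CCI and 193, 237, 1069, 1093, and 1250.2 CPM in Female-CCI, close to flat on both sides of the limit. *Tubb6* stepped up across the limit and went on rising, with 4.88, 8.64, 82.0, 97.3, and 133 CPM in Male-CCI and 5.07, 10.9, 62.5, 92.9, and 126 CPM in Female-CCI. Among the decreasing genes *Scn10a* ran from 180.4, 200.1, 66.1, and 26.2 to 10.7 CPM in Male-CCI and from 199.9, 204, 52.6, and 31.3 to 9.25 CPM in Female-CCI. *Tac1* ran from 2939.5, 2453, 245, and 132 to 45.9 CPM and from 3883, 2958, 365, and 170.2 to 55.1 CPM. Neurons with a trace of *Sprr1a* thus resembled spared neurons in these genes, and the decline continued with the *Sprr1a* level among injured neurons. *Npy* was irregular above the limit, at 39.5, 289, and 272 CPM in Male-CCI and 91.0, 76.7, and 218 CPM in Female-CCI. The bins have no test, and the mix of classes in them was not held constant.

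**Figure D5:**
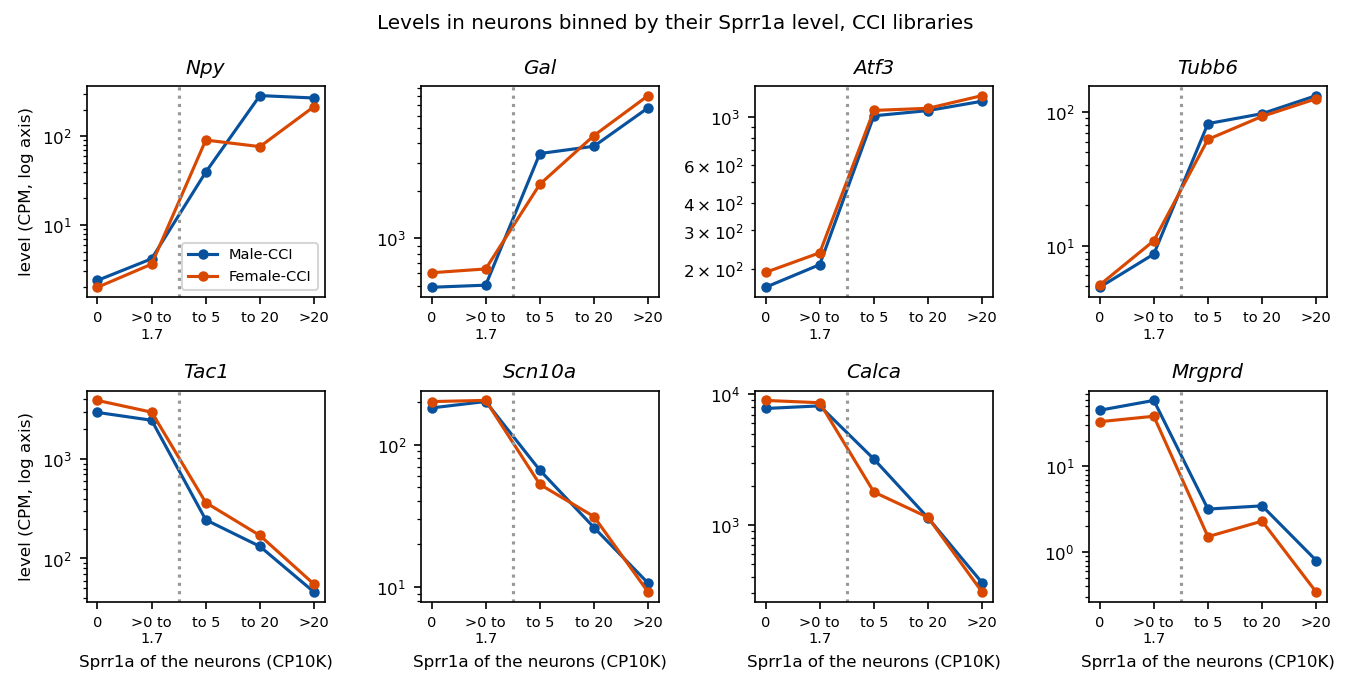
Levels (CPM, log y axes) of 8 genes in neurons binned by *Sprr1a* (x axis, CP10K), Male-CCI and Female-CCI as separate lines. The 4 genes higher in injured neurons stepped up and the 4 lower ones stepped down between the bin up to 1.7 and the bin up to 5 CP10K in both libraries, for example *Calca* from 8151 to 3195 CPM in Male-CCI and from 8614 to 1789 CPM in Female-CCI. The genes were chosen among those that differ between the groups, so the step follows in part from the choice.

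A few genes differed in size between the libraries, which hold mice of different sex, so that sex and library cannot be told apart. Of the genes with at least 20 CPM in 1 group of both libraries, the 6 with the largest gap between the log2 ratios of the libraries kept their direction in both. *Crh* had a log2 ratio of 7.04 in Male-CCI and 4.66 in Female-CCI. The levels were 0.676 and 3.26 CPM in spared and 92.9 and 83.0 CPM in injured neurons, so that the gap came from the spared neurons. The same held for *Gpr151*, an orphan receptor (5.70 and 4.21, with 0.531 and 1.61 against 29.4 and 30.3 CPM), and *Fgf3* (6.58 and 5.20). *Fst*, the activin antagonist follistatin, had ratios of 3.79 and 2.44, *Serpina11* of -4.73 and -2.78, and *Pvalb* of -4.32 and -2.94. These last 3 were not called over all neurons (edgeR adjusted p = 0.0631, 0.153, and 0.111). *Crh* was called over all neurons (edgeR adjusted p = 0.0437) but not in the class-matched test (edgeR adjusted p = 0.0501).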

How the data were processed

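Libraries were made from sorted GFP+ cells by droplet scRNA-seq. The authors aligned reads to mm10 and counted UMIs per gene and cell with Cell Ranger (2.1.1 per the labels, 3.0.2 per the file headers), and the deposited matrices hold these raw UMI counts, neither normalized nor filtered further. A UMI counts a molecule once, so amplification duplicates do not add to a level. The 4 libraries hold 195684124 to 237069156 UMIs in 4019 to 8035 cells.

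Neurons were selected by the limits given above. The UMI counts of a group's cells were added up in each library and tested with edgeR 4.0.16 (filterByExpr, TMM, robust quasi-likelihood, library as a block, Benjamini-Hochberg). *Sprr1a* was left out of calls. The replicate number of the 2 CCI libraries is the library itself, and the injured and the spared sum of a library come from the same animals, so they were paired. For classes, sham neurons were clustered with scanpy 1.11.5 (3000 variable genes, 20 components, Leiden resolution 1) without 4430 genes that differed at least 1.5-fold between injured and spared neurons and 244 glial genes. A cluster was named where at least 3 markers were found in 10% of its cells at 2 times the level elsewhere, at least 1 of them among its 10 leading genes and no other list with more there. The interaction of group and class used sums of at least 10 cells. Gene positions follow the GRCm38 annotation, and RefSeq gave upstream sequences.

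Named genes are the 12 highest and 12 lowest called in both comparisons with at least 20 CPM, up to 4 members per direction of each of 19 lists, and 6 genes each for interaction and library difference. Other list members are given by their difference only, and a few are not reported here. The members and lists were chosen with earlier results of these data known. On simulated data with 200 changed genes, 83.7% of changes of 1 and 99.1% of changes of 2 in log2 units were recovered for all neurons (15626 genes), with 8 unchanged genes called, and 58.3% in the interaction (13291 genes). Alternatives were DESeq2 1.42.0, other filters, normalizations, limits, doublet and glial cutoffs, thinning, no block, and a finer clustering. Library totals in place of TMM were added after the data were seen.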

Additional observations from a re-analysis of the deposited data

Results flagged for a closer look

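The difference between injured and spared neurons itself varied between classes for 6147 genes (edgeR quasi-likelihood interaction test, adjusted p below 0.05), 44.5% of those tested. The 6 smallest adjusted p-values of that edgeR test were those of *Lix1* (3.14e-29), *Ptprn* (4.36e-28), *Pop5* (5.63e-26), *Txn1* (2.49e-25), *Adk* (4.45e-25), and *Phf24* (9.80e-25). They rest on classes cut from the same 2 CCI libraries and do not measure the spread between animals.

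Neurons above the *Sprr1a* limit also occurred in the sham libraries (71 in Male-Sham, 230 in Female-Sham), outside the main comparison. Against sham neurons without *Sprr1a*, all 12 of the genes most increased in injured neurons were higher in them, with a median log2 ratio (CPM plus 1) of 4.69 in Male-Sham and 4.77 in Female-Sham, and all 12 of the most decreased genes were lower, with medians of -2.85 and -2.82. Of these neurons 26.8% and 26.5% lay among the 10% of cells with the highest doublet score of their library, against 8.00% and 8.88% of sham neurons without *Sprr1a*. Their cell barcodes were found among CCI neurons in 1 case (Female-Sham with Male-CCI). The part of doublets in this was not tested.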

How the results depend on the processing

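The counts of genes higher and lower in injured neurons stayed within 1.5 times of the reported ones under all alternatives except thinning of each neuron to 5000 UMIs, which gave 2115 higher genes in place of 3257 (1997 of them shared) on 12938 in place of 15869 tested genes, at a smaller depth and with the groups drawn anew from the thinned counts (1321 and 1656 spared neurons in place of 487 and 683). Without the replicate block the test of all neurons called 3223 higher and 3619 lower genes, and the class-matched test 2721 and 3076. The paired fit used the library as its block, and leaving it out changed the calls of *Pvalb* and *Fst* (all neurons) and of *Crh* and *Fst* (class-matched), which then passed. DESeq2 called 2664 and 2883 genes over all neurons, 2237 and 2373 in matched classes, and 5368 in the interaction in place of 6147. Of 132 genes named for the comparison of all neurons 112 kept their side of the threshold under all alternatives, and of 127 in matched classes 99, and no value of a named gene that was called turned its direction. *Crh*, *Nts*, *Gm7271*, *Sst*, *Cx3cr1*, and *Tac1* lost their call in at least 1 alternative, *Tac1* after thinning (log2 fold change -2.88, adjusted p = 0.0589 by edgeR) and *Crh* with no filter on low counts (5.66, adjusted p = 0.128 by edgeR). The cause was not tested. With 1 library left out no residual degrees of freedom remain, so the other library gives a log2 ratio without a test. The share of neurons above the *Sprr1a* limit moved by more than its interval when the limit was 5 CP10K (52.1% in Male-CCI, 49.0% in Female-CCI, 3.28% in Female-Sham), when any UMI counted (84.8%, 83.0%, and 8.37%, with 4.38% in Male-Sham), and when neurons were thinned to 5000 UMIs (58.8%, 58.7%, and 4.42%). Depth limits genes of few UMIs. In the spared sum of Male-CCI, the smallest, 3 UMIs are the floor, and differences of genes near it rest on the ratios and bounds given with them.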
